A study of Mus musculus with 6 samples.

Results

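Keratins, epithelial junction genes and surface ectoderm regulators were followed in mouse ear tissue at embryonic day 11.5. The set held 40 genes chosen by name, of 18193 genes with a probe set on the array. The rule used gene names and no measured value, but the names were picked with earlier results of these data known. Each of the 40 had at least 1 probe set and passed the filter on dim genes, so all 40 were among the 14170 genes tested. They were described in 2 classes. The first held 23 genes of simple epithelium or of epithelia in general, and the second held 17 genes typical of stratified, keratin 5 and keratin 14 type surface ectoderm.

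The tissue was the otic vesicle, the epithelial sac that becomes the inner ear, dissected together with the periotic mesenchyme around it. In Mest-KO pools Tbx1 was knocked out conditionally with T-Cre, a Cre active in mesoderm. Control pools were T-Cre conditional Tbx1 heterozygotes, so neither genotype was wild type. There were 3 arrays of each genotype, each from left and right ears of 3 pooled embryos. Per the labels' protocols, 300 ng of total RNA was labelled for an Affymetrix Mouse Genome 430 2.0 array, which has 1 colour.

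Epithelial cells are held to each other by E-cadherin and other cadherins, sealed by claudins in tight junctions, and tied to keratin filaments through desmosomes. The otic vesicle is a simple epithelium that forms from the surface ectoderm, whose remaining cells go on to form the skin and switch to other keratins. In such tissue these genes mark the otic wall, the overlying skin and the pharyngeal lining, whereas T-Cre acts in mesoderm. The comparison asked whether genes of the epithelial cells differed when Tbx1 was knocked out with T-Cre. The titles do not give the alleles, so whether the epithelium itself also differed in Tbx1 is not known. In RNA from a mixed dissection, fewer cells of a type and less RNA per cell cannot be told apart.

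Values are the intensities of the deposited files, which are linear, and differences were taken as Mest-KO minus control on the log2(intensity + 16) scale, which understates the change of dim genes. Errors of log2 differences are standard errors of the limma fit, and p-values were adjusted by Benjamini-Hochberg over all 14170 genes, with a threshold of 0.05. Tbx1 itself read 520.5, 578.0 and 409.9 in Mest-KO and 524.5, 567.3 and 446.7 in control (exact two-sided permutation p = 0.9, where 3 arrays against 3 cannot go below 0.1). Tbx1 is also made in otic epithelium, and whether its probe set lies in the deleted part is not given in the sources used here, so this value does not check the labels. Oc90, a gene of the otoconial matrix chosen here as a check of the labelled tissue after its values were seen, was well above background, at 3484 ± 385 in Mest-KO and 3075 ± 262 in control (SD, n = 3 arrays each). Background was taken as the highest intensity, 11.2, of 27 probe sets for bacterial transcripts that read low on every array. For each member at least 1 array of either genotype lay above it.

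Across the 40 members, 0 rose and 0 fell past the threshold, where 21 of all 14170 genes tested did (0.148%), 12 of them higher and 9 lower in Mest-KO. With each array centred on its median, 22 genes were higher and 56 lower, and the members past the threshold were still 0. At an unadjusted limma p under 0.05, 3 members were higher and 3 lower in Mest-KO, and 8.97% of all genes were under that value in one direction or the other. All 3 Mest-KO arrays read above all 3 control arrays for 4 members, against 9.32% of all genes, and all 3 read below for 2 members, against 5.22% of all genes. Both counts were near the share among all genes. Of the 23 simple epithelium genes, 13 were higher and 10 lower, with a median log2 difference of 0.11. Of the 17 stratified ectoderm genes, 5 were higher and 12 lower, with a median of -0.06. Of all genes tested, 7622 were higher and 6548 lower, with a median of 0.01. These medians were smaller than the spread between arrays of one genotype, and without Mest-KO 3 the simple epithelium median was -0.075.

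**Figure D1:**
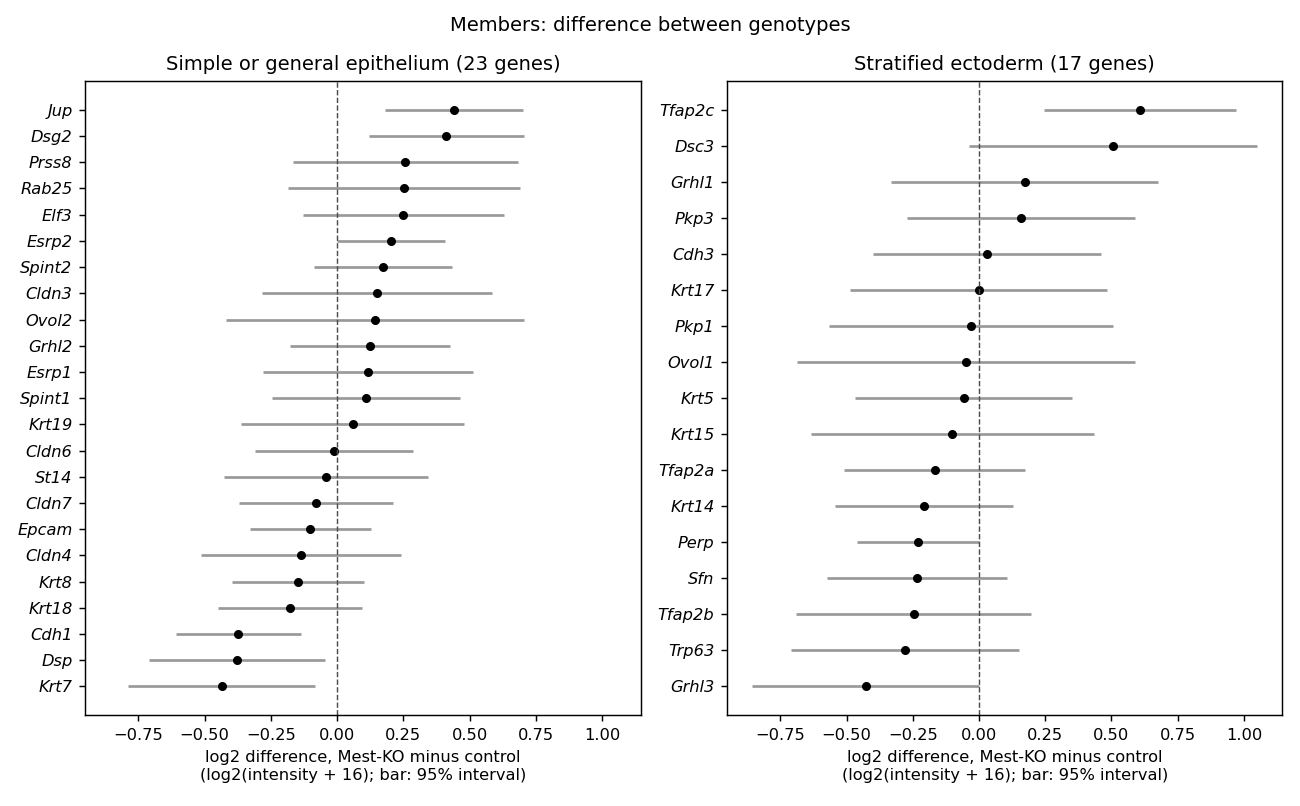
Log2 difference (Mest-KO minus control) of each of the 40 genes on the log2(intensity + 16) scale, with simple or general epithelium genes at left and stratified ectoderm genes at right. Points are the fitted differences and bars their 95% intervals, and the intervals of Jup, Dsg2 and Tfap2c lie above 0 and those of Cdh1, Dsp and Krt7 below it, with 0 genes past the adjusted threshold.

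Among the keratins, 7 of 8 were lower in Mest-KO, against 6548 of all 14170 genes, and 0 passed the test. Of these 7, Krt17 was at -0.002, and Krt17, Krt5 and Krt15 changed sign under 1 or more of the alternatives given below. Krt8 and Krt18 encode the type II and type I partners that form the first keratin filaments of the embryo and of simple epithelia. Krt18 read 2762, 2410 and 3491 in Mest-KO and 2988, 3585 and 3141 in control. Krt8, given on every array as the partner of Krt18 and chosen after its values were seen, read 1286, 1183 and 1542 in Mest-KO and 1454, 1629 and 1350 in control. The groups overlapped for both genes, and in both Mest-KO 3 and control 2 were the brightest arrays of their genotype. The log2 difference was -0.18 ± 0.12 for Krt18 (limma adjusted p = 0.716) and -0.15 ± 0.11 for Krt8 (limma adjusted p = 0.756), and 2 further probe sets of Krt8 differed by -0.11 and -0.23.

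Krt7, a type II keratin of simple and glandular epithelium, had non-overlapping groups. It read 246.0, 212.0 and 338.3 in Mest-KO and 367.7, 362.9 and 344.1 in control. The highest Mest-KO array lay just under the lowest control array, and the controls were close to each other. On the log2 scale Krt7 differed by -0.44 ± 0.16 (95% interval -0.79 to -0.08) and did not pass (limma adjusted p = 0.426). Krt19, a type I keratin of simple epithelium, differed by 0.06 ± 0.19.

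The keratins of basal cells of stratified epithelium did not separate the genotypes. Krt5 and Krt14 form the filament pair of basal skin cells, and they differed by -0.06 ± 0.19 and -0.21 ± 0.15. Krt14 averaged 57.5 ± 5.62 in Mest-KO and 68.8 ± 5.25 in control (SD, n = 3 arrays each), and a second Krt14 probe set differed the other way, by 0.08 ± 0.20. Krt15, another basal keratin, is given by array as a choice made after its values were seen. It was at 102.6 in Mest-KO 1 but at 201.0 and 240.5 in the other Mest-KO arrays, and control ran from 168.7 to 194.6. Its log2 difference of -0.10 ± 0.24 became 0.23 without Mest-KO 1. Krt17, a keratin of periderm and of activated skin cells, averaged 19.5 in both groups.

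The bases upstream of the start sites are shown for Krt8 and Krt18, whose levels ran alongside each other over the arrays, and for Krt7 and Jup, whose groups did not overlap, with Krt7 lower and Jup higher in Mest-KO. Sequences are from RefSeq on GRCm38.p6, where 22 of the 40 members had an entry, and each run is the 250 bases before the start, 5′ to 3′ on the strand of the gene. Krt8 lies on the minus strand at chr15:102004343-102004592, Krt18 on the plus strand at chr15:102027966-102028215, Krt7 on the plus strand at chr15:101412153-101412402 and Jup on the minus strand at chr11:100397791-100398040. Capitals mark every match, on either strand, to 5 short motifs: the TATA box TATAAA, the GC box GGGCGG, the E2 box CAGGTG read by repressors of the Snail and Zeb families, the grainyhead motif AACNGGTT and the TFAP2 motif GCCNNNGGC.
Krt8: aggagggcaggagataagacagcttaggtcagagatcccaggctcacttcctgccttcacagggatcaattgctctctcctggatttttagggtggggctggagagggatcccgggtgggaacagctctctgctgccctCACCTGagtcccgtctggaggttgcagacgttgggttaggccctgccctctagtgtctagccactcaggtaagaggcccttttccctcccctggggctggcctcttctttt
Krt18: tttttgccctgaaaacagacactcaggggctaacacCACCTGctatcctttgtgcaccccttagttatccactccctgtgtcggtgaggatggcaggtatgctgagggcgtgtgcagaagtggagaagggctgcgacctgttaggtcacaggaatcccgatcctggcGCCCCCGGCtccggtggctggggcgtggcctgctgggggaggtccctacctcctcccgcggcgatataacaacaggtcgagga
Krt7: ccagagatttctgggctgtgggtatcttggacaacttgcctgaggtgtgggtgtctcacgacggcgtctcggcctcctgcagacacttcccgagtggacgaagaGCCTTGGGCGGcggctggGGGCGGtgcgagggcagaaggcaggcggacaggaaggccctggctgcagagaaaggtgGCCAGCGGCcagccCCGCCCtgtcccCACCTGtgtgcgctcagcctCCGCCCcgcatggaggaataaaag
Jup: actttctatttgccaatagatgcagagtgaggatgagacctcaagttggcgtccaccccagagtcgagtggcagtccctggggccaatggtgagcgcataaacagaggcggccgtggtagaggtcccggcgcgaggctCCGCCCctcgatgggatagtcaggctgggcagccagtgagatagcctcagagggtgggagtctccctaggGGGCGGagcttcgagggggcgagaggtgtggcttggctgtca

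The Krt8 window held 1 match, an E2 box on the opposite strand from 111 to 106 bases before the start. The Krt18 window held an E2 box on the opposite strand, from 214 to 209 bases before the start, and a TFAP2 motif from 83 to 75. In the Krt7 window there were 4 GC boxes, 2 TFAP2 motifs and 1 E2 box, with 1 TFAP2 motif and 1 GC box overlapping. The Jup window held 2 GC boxes. Of 25 windows of the members, 13 held an E2 box, against 17.2% of the 32851 windows of that length, which leave out chromosome 18. By the same count 14 held a GC box (32.7%), 6 a TFAP2 motif (13.7%), 2 a grainyhead motif (1.79%) and 0 a TATA box (12.4%). These matches describe the letters in the windows only.

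Cell adhesion genes outside the desmosome were Cdh1, Cdh3 and Epcam. Cdh1 encodes E-cadherin, the calcium-dependent adhesion protein of epithelial adherens junctions. It read 1450, 1306 and 1693 in Mest-KO and 1802, 1845 and 2110 in control. Every Mest-KO array was below every control array. On the log2 scale Cdh1 differed by -0.37 ± 0.11 (95% interval -0.61 to -0.14; limma adjusted p = 0.278). Cdh3, encoding P-cadherin of basal epithelial cells, differed by 0.03 ± 0.20.

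Epcam encodes an adhesion protein present on most simple epithelia, and its values are given for each array as a choice made after they were seen. It read 1802, 1805 and 2161 in Mest-KO and 1853, 2291 and 2047 in control. The groups overlapped, with the same 2 arrays brightest as for the Krt8 and Krt18 pair, and the log2 difference was -0.10 ± 0.10 (limma adjusted p = 0.831).

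The desmosome genes went both ways, with 4 of 7 higher and 3 lower. Jup encodes plakoglobin, which links desmosomal and classical cadherins to the cytoskeleton. It read 1274, 947.4 and 1136 in Mest-KO and 749.7, 856.4 and 839.0 in control. All Mest-KO arrays were above all control arrays, and the log2 difference of 0.44 ± 0.12 had the smallest p of the 40 members (limma adjusted p = 0.231; 95% interval from 0.18 to 0.70). Dsg2, the desmosomal cadherin of simple epithelia, read 960.3, 674.3 and 808.5 in Mest-KO and 601.1, 651.2 and 556.6 in control. These groups did not overlap either (0.41 ± 0.13; limma adjusted p = 0.335), but of its 6 probe sets 4 others were bright enough to test and differed by only 0.06 to 0.25.

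Dsp encodes desmoplakin, the protein that anchors keratin filaments to the desmosome. It read 930.1, 634.2 and 752.2 in Mest-KO and 880.0, 950.8 and 1182 in control. Mest-KO 1 lay within the control values and the other Mest-KO arrays below them. The log2 difference was -0.38 ± 0.15 (limma adjusted p = 0.475), and a second Dsp probe set differed by -0.58 ± 0.19. Perp encodes a membrane protein of desmosomes in stratified epithelium that is a target of Trp63. It read 1693, 1438 and 1930 in Mest-KO and 1975, 1920 and 2006 in control. Only Mest-KO 3 reached the control values, and the log2 difference was -0.23 ± 0.10 (limma adjusted p = 0.557).

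Dsc3 encodes the desmosomal cadherin of basal stratified cells. It read 24.6, 65.9 and 32.3 in Mest-KO and 18.8, 25.6 and 22.7 in control. Its difference of 0.51 ± 0.25 (limma adjusted p = 0.582) rested on Mest-KO 2, and it was 0.21 without that array. The plakophilin genes Pkp1 and Pkp3, whose products strengthen desmosomes, differed by -0.03 ± 0.24 and 0.16 ± 0.20.

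None of the 4 claudin genes in the set separated the genotypes. Cldn6, an early embryonic claudin, read 2290, 2012 and 2902 in Mest-KO and 2209, 2817 and 2201 in control. Mest-KO 3 and control 2 again stood above the rest, and the log2 difference was -0.01 ± 0.14 (limma adjusted p = 0.990). Cldn3, Cldn4 and Cldn7 encode further tight junction claudins, and their differences ran from -0.14 to 0.15.

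**Figure D2:**
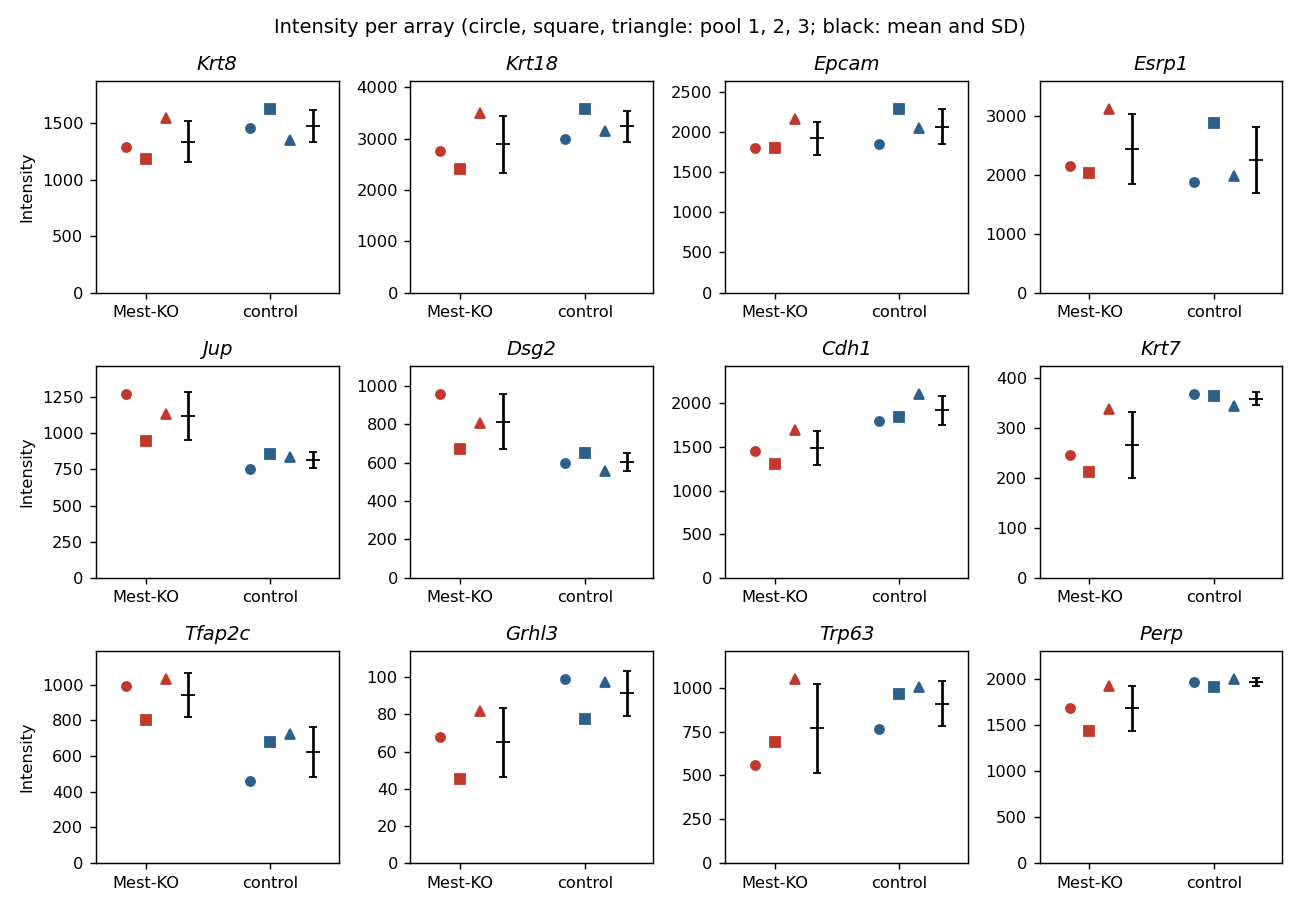
Intensity (linear scale from 0) of 12 of the genes on each array, with Mest-KO in red at left and control in blue at right of each panel, and the black mark and bar giving the mean and SD of 3 arrays. Jup, Dsg2 and Tfap2c read higher in all Mest-KO arrays, Cdh1 and Krt7 lower, and in the top row Mest-KO 3 and control 2 stand above the other arrays of their genotype.

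Of the 10 transcription factor genes, 5 were higher and 5 lower. Tfap2c, an AP-2 factor of surface ectoderm and other early epithelia, had the largest difference of the 40 members with the offset of 16, while with an offset of 1 Dsc3, a dim gene, was at 0.73 and Tfap2c at 0.62. It read 995.8, 804.1 and 1034 in Mest-KO and 461.8, 680.7 and 723.1 in control. The groups did not overlap, and control 1 was the lowest array by a wide margin. On the log2 scale Tfap2c differed by 0.61 ± 0.16 (95% interval 0.25 to 0.97) and did not pass (limma adjusted p = 0.231). Both further probe sets of Tfap2c were higher as well, by 0.47 ± 0.11 and 0.54 ± 0.23.

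Tfap2a and Tfap2b, AP-2 factors made in surface ectoderm and also in neural crest, differed the other way without passing. Tfap2a read 1290, 1207 and 1490 in Mest-KO and 1592, 1133 and 1824 in control. Tfap2b read 744.6, 745.0 and 638.8 in Mest-KO and 899.4, 576.5 and 1152 in control. On these probe sets control 2 was the lowest of the 6 arrays for both genes and control 3 the highest, so the control arrays spanned the Mest-KO values. The log2 differences were -0.17 ± 0.15 for Tfap2a and -0.25 ± 0.20 for Tfap2b. Without control 2 they were -0.36 and -0.52 (-0.021 and -0.025 without control 3). A second Tfap2a probe set had Mest-KO 1 lowest, at 422, and Mest-KO 3 highest, at 744 (-0.18 ± 0.18). Another kept control 2 lowest and control 3 highest (-0.22 ± 0.16).

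Trp63 encodes p63, the factor that commits surface ectoderm to stratification. It read 561.3, 693.1 and 1052 in Mest-KO and 767.0, 962.9 and 1004 in control. The Mest-KO arrays lay on both sides of the control values, and the log2 difference was -0.28 ± 0.20 (limma adjusted p = 0.717). For Trp63 it was -0.53 without Mest-KO 3 and -0.082 without Mest-KO 1. Grhl3, a grainyhead-like factor of the epidermal barrier, read 67.9, 45.3 and 81.9 in Mest-KO and 99.1, 77.5 and 97.6 in control. Only control 2 fell within the Mest-KO range, and the difference was -0.43 ± 0.19 (limma adjusted p = 0.558). Its relatives Grhl1 and Grhl2 differed by 0.17 ± 0.23 and 0.12 ± 0.14, and Ovol1 and Ovol2, zinc finger factors that keep cells epithelial, by -0.05 ± 0.29 and 0.14 ± 0.25. Elf3, an ETS factor of simple epithelium, was dim but read higher in all Mest-KO arrays, at 20.7 to 22.2 against 13.1 to 19.6 in control (0.25 ± 0.17; limma adjusted p = 0.712).

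The splicing regulators Esrp1 and Esrp2, which set the epithelial forms of many transcripts, overlapped between genotypes. Esrp2 read 2936, 2693 and 2766 in Mest-KO and 2461, 2724 and 2136 in control. Control 2 lay among the Mest-KO arrays and the other controls below, and the difference was 0.20 ± 0.09 (limma adjusted p = 0.562). A second, dimmer Esrp2 probe set differed by only 0.02 ± 0.19, and with the mean of all probe sets the difference was 0.11. Esrp1 read 2161, 2036 and 3130 in Mest-KO and 1880, 2895 and 1985 in control. Its spread lay between arrays and not between genotypes (0.12 ± 0.18; limma adjusted p = 0.894).

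Among genes for surface proteases and their inhibitors, 3 of 4 were higher, and 0 passed. Spint2, a membrane inhibitor of serine proteases, read 1117, 872.6 and 941.5 in Mest-KO and 766.2, 915.2 and 906.8 in control. Mest-KO 2 lay among the controls (0.17 ± 0.12; limma adjusted p = 0.708). Spint1, a related inhibitor, St14, encoding the protease matriptase, and Prss8, encoding the protease prostasin that acts with it, differed by 0.11 ± 0.16, -0.04 ± 0.17 and 0.26 ± 0.19. Rab25, a GTPase of epithelial vesicle recycling, differed by 0.25 ± 0.20. Sfn encodes the 14-3-3 sigma protein of stratified epithelium. It read 149.9, 135.9 and 196.3 in Mest-KO and 193.1, 179.1 and 197.5 in control. Mest-KO 3 alone reached the control values (-0.23 ± 0.15; limma adjusted p = 0.694).

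Over all probe sets bright enough to test, 63 of the 73 probe sets of the members were tested, and 0 passed where 0.0666% of 31526 probe sets did. Of the other probe sets, 5 read at or below background on every array.

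The 23 simple epithelium genes of the set varied together between arrays of one genotype. For 15 of these 23 genes Mest-KO 3 was the brightest Mest-KO array and control 2 the brightest control array, a pattern that 14.7% of all genes tested showed and 1 of the 17 stratified ectoderm genes. It was present in 3 of 32 other epithelial genes outside the set (9.38%) and in 3 of 15 otic epithelium genes (20.0%). It was noticed in these data and is given as a description. Mest-KO 3 was above Mest-KO 2 for 23 of the 23 genes (6663 of all 14170). The median log2 gap was 0.51, and -0.015 over all genes. These are the highest and lowest Mest-KO arrays for this list. The median size of the genotype difference was 0.15 for the 23 genes and 0.098 for all genes. That difference is between means of 3 arrays, so it cannot be set directly against a gap between single arrays. Control 2 was above the mean of the other controls for 20 of the 23 (6783 of all 14170), by a median of 0.25. The stratified ectoderm genes shared the high Mest-KO 3, with 14 of 17 above the mean of the other Mest-KO arrays (6525 of all 14170) and a median gap of 0.32, but in control 2 only 6 of 17 were above the other controls and the median gap was -0.15.

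**Figure D3:**
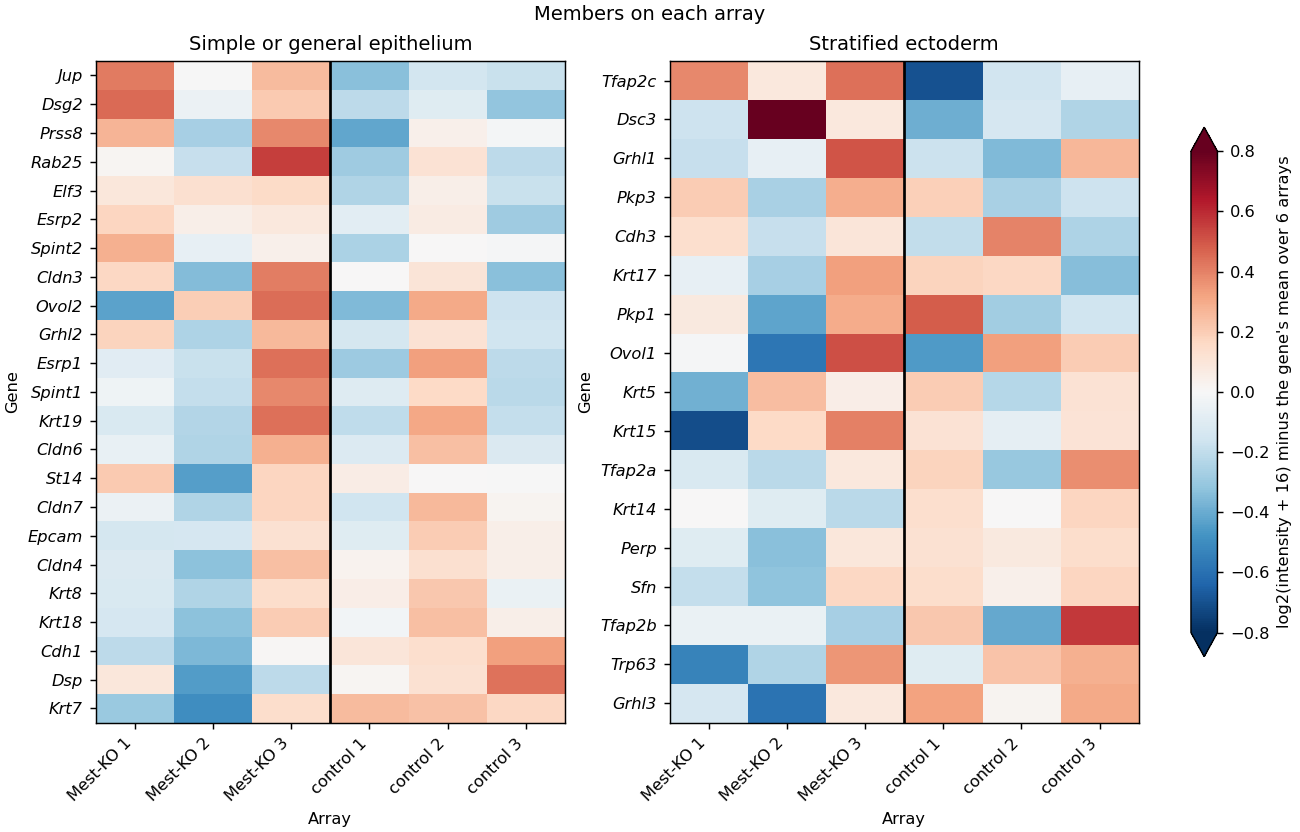
Log2(intensity + 16) of each member (rows) on each array (columns, Mest-KO left of the black line and control right of it), minus the mean of that gene over 6 arrays, with rows ordered by the difference between genotypes and the colour scale ending at 0.8. Among simple or general epithelium genes the columns of Mest-KO 3 and control 2 are red for most rows and Mest-KO 2 is blue, whereas stratified ectoderm genes share the red of Mest-KO 3 but not that of control 2.

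Some other gene lists of the dissection ran alongside this spread. The mean of 15 otic epithelium genes, as a log2 deviation from the mean of 6 arrays, was -0.05, -0.12 and 0.10 in Mest-KO 1, 2 and 3 and -0.04, 0.07 and 0.03 in control 1, 2 and 3. The mean of the 23 simple epithelium genes was 0.02, -0.20 and 0.23 in Mest-KO and -0.12, 0.14 and -0.07 in control. Within each genotype both lists put the arrays in the same order. The mean of 32 other epithelial genes outside the set was 0.10, -0.11 and 0.11 in Mest-KO and -0.06, -0.04 and 0.01 in control. It shared the order of the Mest-KO arrays, but its highest control array was control 3 and not control 2. The mean of 17 periotic mesenchyme genes was -0.19, 0.11 and -0.16 in Mest-KO and 0.16, 0.01 and 0.07 in control, so that the brightest mesenchyme array of each genotype was the dimmest for simple epithelium. The part of the tissue makeup in the members' values was not tested.

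The pharyngeal lining also makes simple epithelium genes, and the mean of its markers was below 0 on all 3 Mest-KO arrays. The mean of 9 tested genes of pharyngeal endoderm was -0.32, -0.26 and -0.25 in Mest-KO and 0.51, -0.01 and 0.32 in control, with 7 of 9 lower and 1, Foxa1, past the threshold (-1.34 ± 0.17; limma adjusted p = 0.0191). Foxa1 passed under 11 of 17 alternatives, with adjusted p up to 0.111 without Mest-KO 1. Foxa1 is a forkhead factor of endoderm. The endoderm factor genes Hhex and Sox17, named after their values were seen, were higher without passing, by 0.10 and 0.12, and only Foxa1, Shh and Pax1 of the 9 were lower on every Mest-KO array. Shh, the secreted hedgehog ligand, differed by -1.50 ± 0.27 and Pax1, a paired box gene of the pharyngeal pouches, by -1.47 ± 0.30 without passing. Hindbrain neural tube genes read -0.58, -0.11 and -0.79 in Mest-KO and 0.87, -0.25 and 0.87 in control, with 14 of 14 lower and 1, the transcriptional corepressor gene Skor1, past the threshold (-3.46 ± 0.49; limma adjusted p = 0.0256). Skor1 read 25.6, 30.5 and 18.7 in Mest-KO and 746, 138 and 750 in control, so control 2 was far below the other controls. Of all 14170 genes tested, 6548 were lower, and 0.148% passed in either direction. The stratified ectoderm list read -0.11, -0.13 and 0.19 in Mest-KO and 0.02, -0.05 and 0.09 in control. In control 2 the endoderm, neural tube and stratified ectoderm lists were each at their lowest among controls, and simple epithelium was at its highest. The part of these tissues in the lower Cdh1, Krt7, Dsp and Grhl3 values was not tested.

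**Figure D4:**
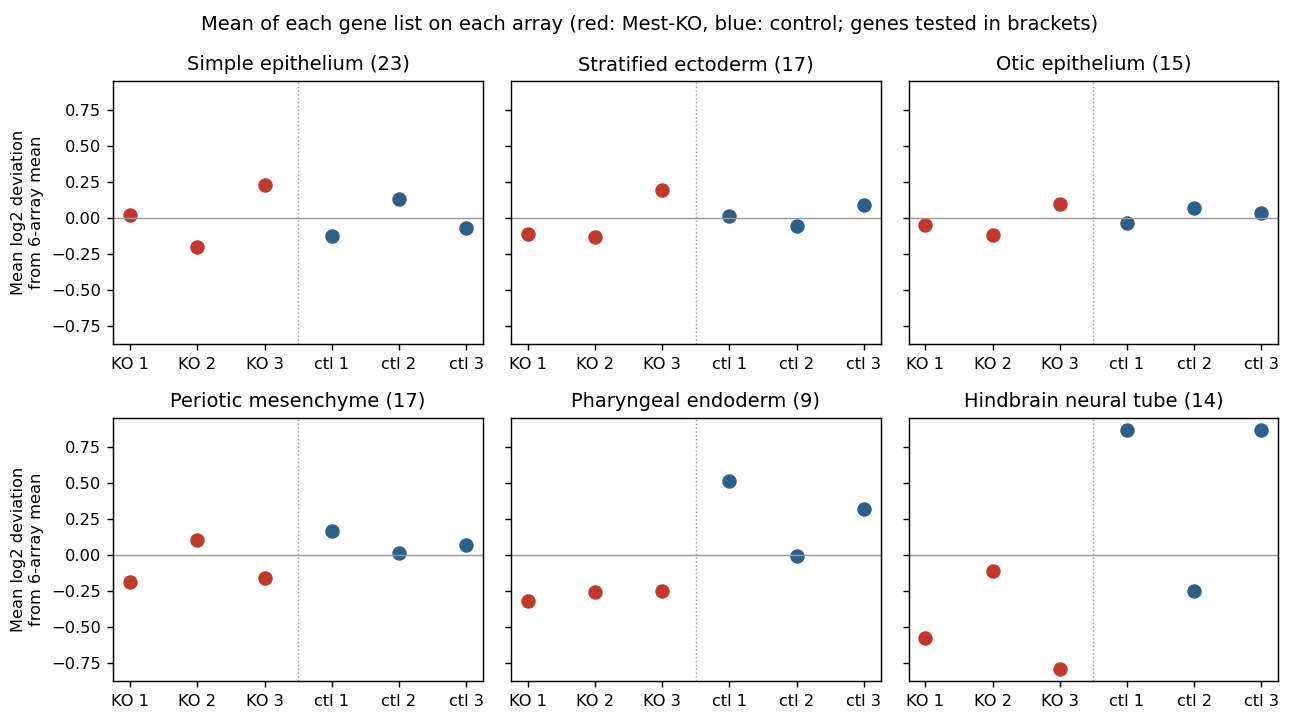
Mean log2 deviation from the mean of 6 arrays for 6 gene lists on each array, with Mest-KO (KO) in red left of the dotted line and control (ctl) in blue right of it. Simple epithelium and otic epithelium share the order of arrays within each genotype, pharyngeal endoderm is lower in every Mest-KO array, and the neural tube list sets control 1 and control 3 apart from control 2.

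Members were also set against the other simple epithelium members on the same array. The mean deviation of the other simple epithelium genes was subtracted from that of each gene, array by array, as a comparison added after seeing the data. Cdh1 was then at -0.24, -0.16 and -0.23 in Mest-KO and 0.23, -0.002 and 0.41 in control. Krt18 was at -0.17, -0.13 and -0.03 in Mest-KO and 0.10, 0.11 and 0.12 in control, and Krt8 and Krt7 were likewise lower in every Mest-KO array. Jup was at 0.41, 0.21 and 0.02 in Mest-KO and -0.23, -0.30 and -0.11 in control, and Dsg2, Elf3 and Rab25 were likewise higher in every Mest-KO array. In this form groups did not overlap for 4 higher and 4 lower of the 23 genes, and among all genes for 2.41% higher and 1.81% lower. The shares are not on an equal footing, because the subtraction takes a shared spread out of these 23 genes and adds it to unrelated ones. Each reference was also made of the other members, so higher values of some of the 23 force lower values of others. Before the subtraction the groups of Krt8, Krt18 and Rab25 overlapped. Of the stratified ectoderm genes, Tfap2c was higher and Grhl3 and Perp lower in every Mest-KO array.

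Other epithelial genes outside the set also went both ways. Of 40 genes for tight junctions, desmosomes, hemidesmosomes and epithelial regulators, 32 were tested, 20 were higher and 12 lower in Mest-KO, and 0 passed, with a median of 0.06. Cldn1, a claudin of the skin barrier, averaged 783 ± 121 in Mest-KO and 496 ± 77.8 in control (SD, n = 3 arrays each; 0.64 ± 0.14; limma adjusted p = 0.165). Myo5b, a motor of apical vesicle traffic, differed by 0.51 ± 0.14 and Marveld3, a tight junction protein gene, by 0.50 ± 0.20. Among the 12 lower genes, Mal2 and Elf5, named after their values were seen, differed by -0.32 ± 0.14 and -0.42 ± 0.21. Among otic epithelium genes 0 of 15 passed, with Sox10, a neural crest and otic factor, at 0.41 ± 0.08, Otx1, a homeobox gene of the ventral otic wall, at -0.79 ± 0.20 and Gata3, a zinc finger factor, at -0.62 ± 0.21.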

How the data were processed

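Arrays were assigned to genotypes from their titles. The deposited intensities, on a linear scale, were made by the authors; the submitters' processing notes name Affymetrix Expression Console 1.1. How probes were summarized and corrected for background is not given in the sources used here. After trimming 2% of probe sets at either end, each array averaged 500.002, so arrays had been scaled to a common level. Of 45101 probe sets, 64 controls were left out, 34945 had 1 gene symbol, 932 several and 9160 were not listed in the platform's annotation. Symbols were checked by Entrez ID against RefSeq genes of GRCm38.p6, which changed 0 and lacked 204 of the probe sets' IDs.

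From the deposited values, log2(intensity + 16) was computed. For each gene the probe set of highest mean on that scale was used, and kept above the 30th percentile of probe sets (an intensity of about 13.3). Genotype was tested with limma 3.58.1 in R 4.3.3 (lmFit, eBayes with trend, two-sided, Benjamini-Hochberg over 14170 genes), a step that was also tested on simulated data. Titles number the arrays as biological replicates, and the number of arrays limits the precision. Correlations of the 14170 log2 values were 0.991 to 0.993 within genotypes and 0.987 to 0.992 across them.

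The 40 members, their classes and the other gene lists were chosen with earlier results of these data known, so no list was tested and lists are described by counts and medians. Values on every array are given for the 12 members with the smallest p and the 4 brightest of each class, and genes named outside these rules are marked as chosen after their values were seen. Every member was eligible to be named, and of each other list the members past the threshold and up to 3 with the smallest p. Alternatives were other offsets, scalings and filters, probe set averaging, other eBayes settings, array weights, a replicate block and leaving out each array.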

Additional observations from a re-analysis of the deposited data

How the results depend on the processing

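Under the 17 alternatives run, 16 of them planned and 1 (Mest-KO 3 and control 2 both left out) chosen after seeing the data, 0 members passed the limma threshold in either direction, and the lowest adjusted p of any member was 0.132. Of 670 member values, 632 kept their sign, and 24 members never changed sign, among them Jup, Dsg2, Tfap2c, Cdh1, Krt7, Dsp, Krt8 and Krt18. The count over all genes, 12 higher and 9 lower, was 22 and 56 with arrays centred on their medians, 0 and 2 without a filter, 1 and 5 with the mean of all probe sets and 0 and 1 for eBayes without trend. With array weights 15 were lower, and with both arrays left out 44 were lower. Leaving out single arrays gave 0 to 21 higher (most without control 2) and 2 to 61 lower (fewest without control 1, most without control 2). With the replicate block 3 genes were higher, and same-numbered arrays did not deviate together (correlations of -0.028, -0.11 and -0.15). These correlations over all genes cannot decide whether same-numbered pools were paired, because a shared step need not dominate them. The median of simple epithelium members ran from -0.075 without Mest-KO 3 to 0.22 without control 2. The median of stratified ectoderm members was -0.20 with the filter at the 50th percentile, which left 31 of the 40 members, and -0.23 without Mest-KO 3 and control 2.

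Krt17 was 0.00026 with an offset of 1 and 0.0010 with quantile normalization, Cdh3 was -0.020 with quantile normalization and -0.035 with arrays centred on their medians, and Krt19 was -0.0069 with arrays so centred. Pkp3 was -0.064 with the mean of all probe sets and -0.038 with both arrays left out, where Grhl1 was -0.17. Leaving out single arrays, values ran from -0.15 to 0.23 for Krt19, -0.19 to 0.12 for Krt5, -0.33 to 0.23 for Krt15, -0.17 to 0.13 for Krt17, -0.084 to 0.24 for Cdh3, -0.075 to 0.31 for Esrp1, -0.038 to 0.35 for Grhl1, -0.32 to 0.23 for Ovol1, -0.044 to 0.39 for Ovol2, -0.017 to 0.36 for Cldn3, -0.16 to 0.11 for Cldn6, -0.18 to 0.029 for Cldn7, -0.19 to 0.20 for Pkp1, -0.16 to 0.17 for St14 and -0.057 to 0.23 for Spint1. Without changing sign, values moved by over 1.5 times for others: -0.53 to -0.082 for Trp63, -0.36 to -0.021 for Tfap2a, -0.52 to -0.025 for Tfap2b, -0.32 to -0.056 for Krt18, -0.25 to -0.064 for Krt8, -0.19 to -0.024 for Epcam, -0.52 to -0.25 for Dsp, -0.33 to -0.12 for Perp, -0.58 to -0.24 for Grhl3, -0.37 to -0.13 for Sfn, 0.21 to 0.72 for Dsc3, 0.11 to 0.28 for Esrp2, 0.074 to 0.25 for Spint2, 0.026 to 0.28 for Grhl2, -0.29 to -0.0063 for Cldn4, 0.053 to 0.33 for Pkp3, 0.12 to 0.46 for Prss8 and 0.042 to 0.41 for Rab25. Foxa1 missed the threshold without a filter (adjusted p = 0.0973), for eBayes without trend (0.0794) and without Mest-KO 1 (0.111), Mest-KO 2 (0.0681), control 1 (0.0673) or control 3 (0.0983). The cause of these moves was not tested.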

Other observations

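Of 10 genes of mesenchymal cells and repressors of epithelial genes, 6 were higher and 4 lower in Mest-KO, 0 passed, and the median log2 difference was 0.01. The Snail-family repressor Snai2 averaged 3981 ± 133 in Mest-KO and 3649 ± 81.4 in control (SD, n = 3 arrays each), a log2 difference of 0.12 ± 0.06 (limma adjusted p = 0.595). Zeb2, a repressor of E-cadherin, differed by 0.14 ± 0.12, and Cdh2, encoding N-cadherin, by 0.09 ± 0.08. The 4 lower genes, Snai1, Twist1, Twist2 and Cdh11, named after their values were seen, had differences from -0.06 to -0.03.

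The blood endothelium list had 7 of 8 genes higher (7622 of all 14170), with 0 past the threshold and a median of 0.06. The receptor genes Tie1 and Tek had non-overlapping groups, higher in Mest-KO, as did 9.32% of all genes. Their log2 differences were 0.54 ± 0.14 (limma adjusted p = 0.207) and 0.29 ± 0.08 (limma adjusted p = 0.265). Cdh5, the cadherin of endothelial junctions, differed by 0.27 ± 0.15. The other genes are named after their values were seen. Pecam1, Kdr, Emcn and Cldn5 ran from 0.03 to 0.07, and Erg was lower, at -0.21 ± 0.25.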
